A study of Mus musculus with 32 samples.

Results

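The comparison described here set the cortex of Kat6b transgenic mouse embryos, Tg(Kat6b), against the cortex of wild-type embryos at E15.5 (embryonic days after mating). It used 8 of the 32 libraries of the series, 4 per genotype, chosen by the genotype, age and background in their labels. Both groups came from a mixed FVBxBALB/c background, which the study used because the transgene was not viable on an inbred one, and all 8 libraries were sequencing batch 1. Wild-type embryos carried no listed allele. The sources used here name neither the promoter of the transgene nor the number of lines. Litter and embryo number are blank in the labels of these libraries. Whether each replicate was a separate embryo or litter is therefore unknown. The p-values measure the spread between libraries, which may be partly technical. Except where said, that spread was estimated in a fit that also held the E12.5 libraries of the same background named below. The comparison asks what a rise in Kat6b RNA is accompanied by in the cortex while upper-layer neurons are being made. Set beside it were Tg(Kat6b) and wild-type dorsal telencephalon at E12.5 from the same background (4 libraries each), and the labelled Kat6b-/- and wild-type cortex at E15.5 from C57BL/6 embryos (5 libraries each, sequencing batch 2). The label of 1 of those knockout libraries gives its tissue as dorsal telencephalon, although its title reads cortex. That library was kept with its stated age.

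KAT6B is a histone lysine acetyltransferase of the MYST family, which works in a complex with a BRPF scaffold protein and the small subunits ING5 and MEAF6. Its close relative KAT6A occupies the same kind of complex. Loss of a KAT6B copy in people causes developmental syndromes with intellectual disability, and in the mouse the gene is strongly expressed in the developing cortex. In the cortex at this age, apical progenitors beside the ventricle divide, give rise to intermediate progenitors, and these produce the neurons of the cortical layers.

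Per library, between 10424813 and 22396130 reads were counted on genes. Markers of cortex were present in each of the 8 libraries: Neurod6 lay between 933 and 1660 CPM (counts scaled to library size), Pax6 between 100 and 160 and Emx1 between 40.7 and 74.9. Wild-type replicate 3 was the only female library, with 18 counts on 4 Y-linked genes and 12020 on Xist, where the other 7 had at least 2130 and at most 38. This library also held 428 CPM of Ttr, the choroid plexus transthyretin gene, against at most 2.81 in any other. Tg(Kat6b) replicate 4 and wild-type replicate 3 lay at the opposite ends of the first principal component, at -39.2 and 31.8, with the other libraries between -27 and 15.3. That component held 26.2% of the variance.

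Kat6b itself and the gene next to it, Dupd1, rose in the transgenic cortex, and edgeR called no gene lower. These are 2 of 15556 genes tested, or 0.0129%, at a Benjamini-Hochberg adjusted p below 0.05 by the edgeR quasi-likelihood test. At an unadjusted p below 0.05 there were 176 genes with higher values (1.13%) and 170 with lower values (1.09%), together 346 or 2.22% of the genes tested, where 0.05 of those genes would be 778. The median log2 fold change over all genes was 0.0028, and 51.01% of genes lay above 0. In 234 genes (1.5%) all 4 transgenic libraries were above all 4 wild-type libraries, and in 164 (1.05%) all were below. DESeq2 called 7 genes on the same counts, namely Kat6b, Dupd1, Fut10, Platr25, Trhr, Cand2 and Ttr. A fit of the 8 libraries alone called 4, adding Fut10 and Platr25 to Kat6b and Dupd1.

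Kat6b (chromosome 14, 21499216 to 21672478 on mm10) stood at 224, 186, 149.9 and 163 CPM in wild-type replicates 1 to 4 and at 633, 584, 628 and 773 CPM in the transgenic replicates. The lowest transgenic library had more than the highest wild-type library. The group means were 181 ± 32.4 and 654 ± 81.9 CPM (SD, n = 4 each). Their log2 fold change was 1.86 (SE 0.130, 95% interval 1.58 to 2.13, edgeR adjusted p = 1.64e-06). This is a 3.62-fold rise with an interval of 2.99 to 4.38. The series' own text gives about 4.5-fold without an age or method, and 4.38 is the bound of the interval nearest to it. Kat6b was called under each of the 20 alternative settings tried. Counts per gene do not tell transcripts of the transgene from those of the endogenous gene.

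**Figure D1:**
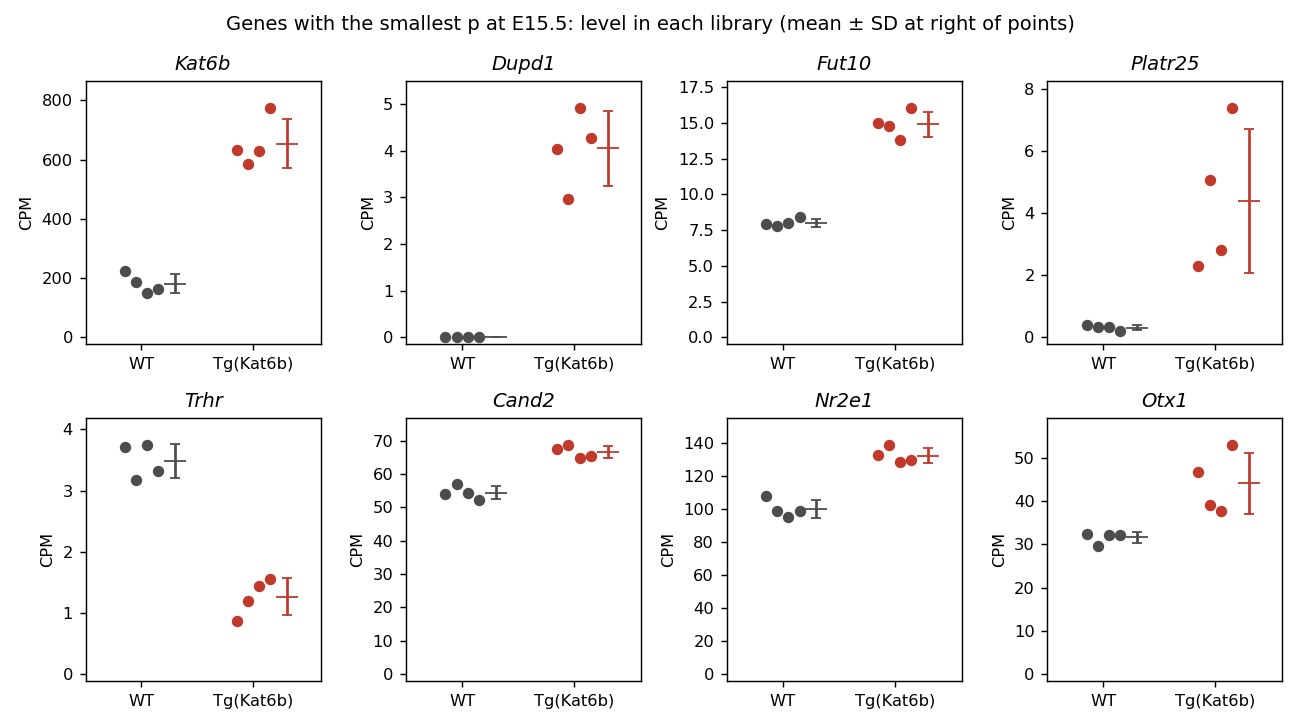
Level in CPM (vertical axis, linear) of the 8 genes with the smallest p in each of the 4 wild-type (grey) and 4 Tg(Kat6b) (red) libraries at E15.5, with mean ± SD to the right of the points. Kat6b and Dupd1 passed the adjusted threshold, and in each of the 8 panels the points of the groups do not overlap, which their choice by p nearly fixes.

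Dupd1, a dual-specificity phosphatase gene known from skeletal muscle, had 0 counts in each wild-type library and 51, 55, 61 and 44 counts in the transgenic libraries. Its level was 4.05 ± 0.803 CPM in Tg(Kat6b) cortex (SD, n = 4), at least 74.7-fold higher than wild type when the floor of 3 counts over the wild-type group, 0.0524 CPM, is set against the pooled transgenic level (edgeR adjusted p = 1.52e-05). Such a floor covers counting error only, since no molecular tags are described for these reads. Per 100 Kat6b counts, the transgenic libraries held between 0.509 and 0.781 Dupd1 counts. Per kilobase of transcript, Dupd1 reached 3.67 ± 0.728 RPKM in the transgenic cortex, where the excess of Kat6b over wild type was 64.5 RPKM. At E12.5 the same gene had 89, 78, 76 and 79 counts in the transgenic libraries and 0, 0, 2 and 2 in wild type.

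Dupd1 (chromosome 14, 21676565 to 21714576) lies on the opposite strand, with its nearer edge 4086 bp beyond the end of Kat6b. The genes run toward each other, so that edge is the end of Dupd1. The sources used here do not say whether the authors' counting used strand, so reads running on from Kat6b and reads of Dupd1 cannot be told apart. Markers of skeletal muscle did not accompany Dupd1. Of 20 muscle genes, 9 were too low to test, among them the regulators Myod1 and Myog with at most 2 counts in either group, and 1 of the 11 tested lay above 0. The summed muscle markers were at 14.2 to 17.3 CPM in wild-type and 9.12 to 12.7 CPM in transgenic libraries.

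Apart from Dupd1, no tested gene around Kat6b was called. Within 1 Mb on either side lie 26 genes of the files, of which 20 were tested. The 18 other than Kat6b and Dupd1 had a median log2 fold change of 0.02 (SD 0.17) and 11 lay above 0, with none at an unadjusted p below 0.05. Adk, the adenosine kinase gene on the other side of Kat6b and 50646 bp from it, differed by 0.13. Samd8, beyond Dupd1, differed by 0.06, and Dusp13, which lies between them, was too low to test, with 2 counts in wild type and 1 in transgenic libraries. The lowest and highest of these neighbours were the non-coding 1810062O18Rik at -0.60 (interval -1.67 to 0.47) and Zfp503 at 0.28 (interval -0.20 to 0.75).

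**Figure D2:**
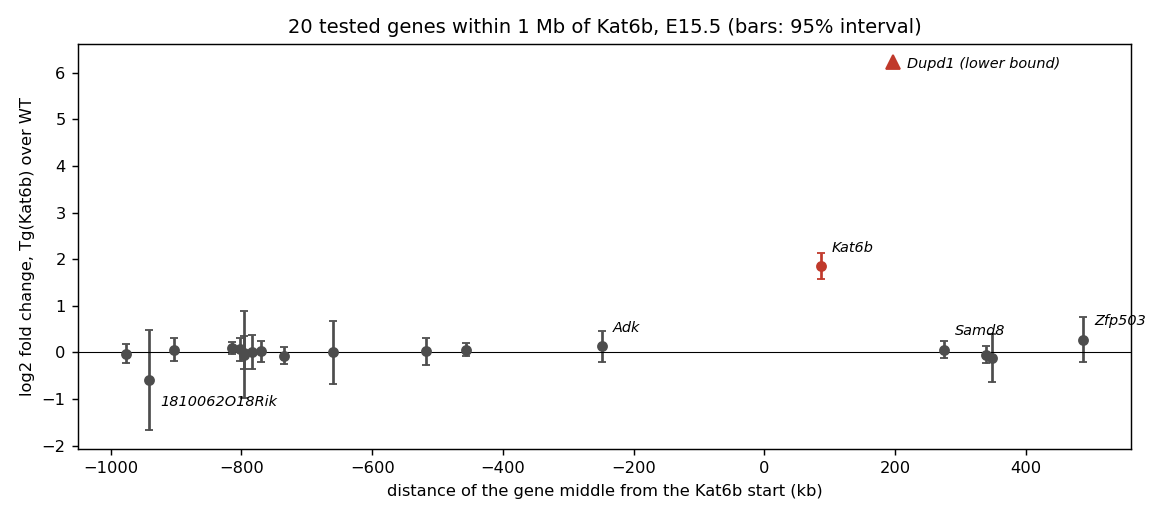
Log2 fold change of Tg(Kat6b) over wild type at E15.5 (vertical axis) for the 20 tested genes within 1 Mb of Kat6b, by distance of each gene's middle from the Kat6b start (horizontal axis, kb), with 95% intervals. Kat6b and Dupd1 are red, the triangle marks the lower bound of Dupd1, and the other 18 genes lie between -0.60 and 0.28.

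The rise of Kat6b changed its standing beside Kat6a, the other enzyme of this complex. On the per-length scale (RPKM), Kat6b was at 24.6 ± 4.42 in wild-type and 89.2 ± 11.2 in transgenic cortex, and Kat6a at 29.4 ± 4.54 and 32.2 ± 4.09 (SD, n = 4 each). Kat6b made up 44.1% to 47.5% of the summed Kat6a and Kat6b level per length in the wild-type libraries and 72.2% to 74.9% in the transgenic ones, so the groups were far apart. Kat6a itself differed by 0.13 on the log2 scale (interval -0.14 to 0.41) and did not pass. The partners showed no call either. For the scaffold genes Brd1 and Brpf1 the log2 differences were 0.18 (95% interval of the single gene 0.01 to 0.35) and 0.12. The small subunits Ing5 and Meaf6 stood at 0.14 and 0.01. Among the other MYST enzymes, Kat7 differed by 0.13, with 107, 110.1, 109.9 and 110.3 CPM in wild-type and 123, 114, 118 and 122 CPM in transgenic libraries. These groups did not overlap, as in 2.56% of all genes tested, and Kat7 was named for its small p in this list. Kat8 and Kat5 differed by 0.05 and -0.02. Of the 14 genes of this list 1 was called, Kat6b, and 11 lay above 0. Among 20 other histone acetyltransferase and deacetylase genes 14 lay above 0, with a median of 0.03 and no call.

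The 18 genes with the smallest p after Kat6b and Dupd1 did not pass the adjusted threshold, so what follows for them is a description. In each of the 18 the groups did not overlap, which their choice by p nearly fixes; 2.56% of all genes tested share it, and nothing is read from that. Fut10 (chromosome 8, 31187313 to 31265284), which encodes a fucosyltransferase, stood at 7.90, 7.76, 8.03 and 8.39 CPM in wild-type and 14.98, 14.8, 13.8 and 16.01 CPM in transgenic libraries. The spread within each group was small beside the gap between them, and the log2 fold change was 0.89 (SE 0.164, edgeR adjusted p = 0.242). Fut10 passed in 4 of the 20 alternative settings, where its adjusted p ran from 0.00182 to 1. Platr25, a non-coding RNA, stood at 0.390, 0.318, 0.340 and 0.195 CPM in wild-type and 2.30, 5.08, 2.81 and 7.38 CPM in transgenic libraries. These levels rest on 2 to 7 counts per wild-type library and 29 to 94 per transgenic library, and the log2 fold change was 3.78 (SE 0.804, edgeR adjusted p = 0.907).

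Trhr, the receptor of thyrotropin-releasing hormone, had the smallest p among genes with lower values. It stood at 3.71, 3.18, 3.74 and 3.32 CPM in wild-type libraries and at 0.872, 1.19, 1.45 and 1.55 CPM in transgenic libraries, a log2 fold change of -1.47 (SE 0.323, edgeR adjusted p = 0.907). Its highest transgenic value was below its lowest wild-type value.

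Nr2e1 encodes TLX, a nuclear receptor that keeps neural stem cells dividing. It stood at 108, 99.2, 95.3 and 98.9 CPM in wild-type and 133, 139, 129 and 129.7 CPM in transgenic libraries. Its log2 fold change was 0.40 (SE 0.091, edgeR adjusted p = 0.907), and its lowest adjusted p over the alternative settings was 0.059. Otx1 encodes a homeobox factor known from progenitors and layer V-VI neurons of the cortex. It stood at 32.5, 29.6, 32.2 and 32.3 CPM in wild-type and 46.8, 39.2, 37.8 and 52.99 CPM in transgenic libraries. The transgenic libraries of Otx1 differed more among themselves than the wild-type ones, and the log2 fold change was 0.48 (SE 0.121). Cand2 encodes an exchange factor of cullin ubiquitin ligases. In CPM it was at 54.0, 57.01, 54.3 and 52.4 in wild-type and 67.5, 68.7, 64.8 and 65.5 in transgenic libraries, a small but tight log2 difference of 0.29 (SE 0.065).

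Of the remaining 12, 5 had higher values. These were Cth, an enzyme of cysteine synthesis (1.59 ± 0.482 to 3.95 ± 0.488 CPM, log2 fold change 1.29), the cell death gene Bcl2l11 (0.38), Ttc7 (0.69), the kinase gene Irak4 (1.02) and the ribosomal pseudogene Rpl13-ps6 (0.77). Reads of Rpl13-ps6 can be shared with its parent gene, which makes its count uncertain. Lower values were found for 7: the receptor kinase gene Grk4 (-0.75), the cadherin gene Cdh9 (-0.75), the lysophospholipase gene Enpp2 (-0.59), the zinc finger gene Zfp808 (-0.45), the astrocyte water channel gene Aqp4 (-0.91), 4933417D19Rik (-1.24) and Ttr (-7.10). The value of Ttr rests on wild-type replicate 3. Without that library it was -1.41. Zfp808 and Platr25 lie 498 kb apart on chromosome 13 and had opposite signs.

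The same genes were then read at E12.5 and in the labelled knockout. Neither holds a library of the groups compared at E15.5. The E12.5 libraries were in the same fit, though, and entered the spread behind the p-values by which the genes were chosen. Kat6b was 541 ± 54.0 CPM in transgenic and 175 ± 20.2 CPM in wild-type tissue at E12.5 (SD, n = 4 each), 1.63 apart on the log2 scale. The difference of this effect between the ages was 0.23 (interval -0.15 to 0.61). For no gene did the effect of the transgene differ between the ages at an adjusted p below 0.05 by edgeR. At an unadjusted p below 0.05 there were 628 genes (4.04%), and DESeq2 called 1, Cand2. At E12.5 itself 2 genes passed, again Kat6b and Dupd1. In the labelled knockout libraries Kat6b RNA was between 157 and 193 CPM, and in their wild type between 153 and 194 CPM. The counts of this gene thus do not separate those libraries by label, and each direction read from the knockout below rests on the label alone. No gene passed in the knockout comparison by edgeR, with 456 at an unadjusted p below 0.05, and DESeq2 called 7. Equal replicate numbers share a litter in that experiment, and neither of these fits used that pairing.

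Of the 20 genes, 11 (55%) had the same sign at E12.5, beside 51.5% of all genes tested. Fut10 was 0.63 higher on the log2 scale at E12.5, Nr2e1 0.25 higher and Enpp2 at -0.52. Others were not in the same direction. For them the difference between the ages contains the E15.5 effect by which they were chosen, which pushes it away from 0. Nothing is therefore read from the intervals that follow. Cand2 was at -0.18 at E12.5, with a difference between the ages of 0.47 (single-gene 95% interval 0.28 to 0.66), which did not pass the adjusted threshold. For Otx1, at -0.19, the difference was 0.67 (interval 0.31 to 1.02). The difference of Trhr between the ages was -1.67 (interval -2.70 to -0.63). At E12.5 its log2 fold change was 0.20 (interval -0.57 to 0.97), with 0.370 CPM in wild-type and 0.412 CPM in transgenic tissue. Whether this low level bears on the difference was not tested.

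In the labelled knockout, 15 of the 19 of these genes that could be tested there (78.9%) had the sign opposite to that in transgenic cortex, beside 63.2% of all genes tested in both and 76.2% of those at an unadjusted p below 0.05 in transgenic cortex. Nr2e1 was at 66.9 ± 5.69 CPM in the labelled knockout and 92.8 ± 8.16 CPM in its wild type (SD, n = 5 each). The log2 fold change was -0.47 (edgeR adjusted p = 0.315). Otx1 was at 20.1 ± 0.724 and 29.9 ± 3.39 CPM, and its log2 fold change was -0.57 (edgeR adjusted p = 0.356). Fut10 was at -0.08 in the labelled knockout and Trhr at 0.52. Background strain and sequencing batch differ between both experiments and cannot be told apart.

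**Figure D3:**
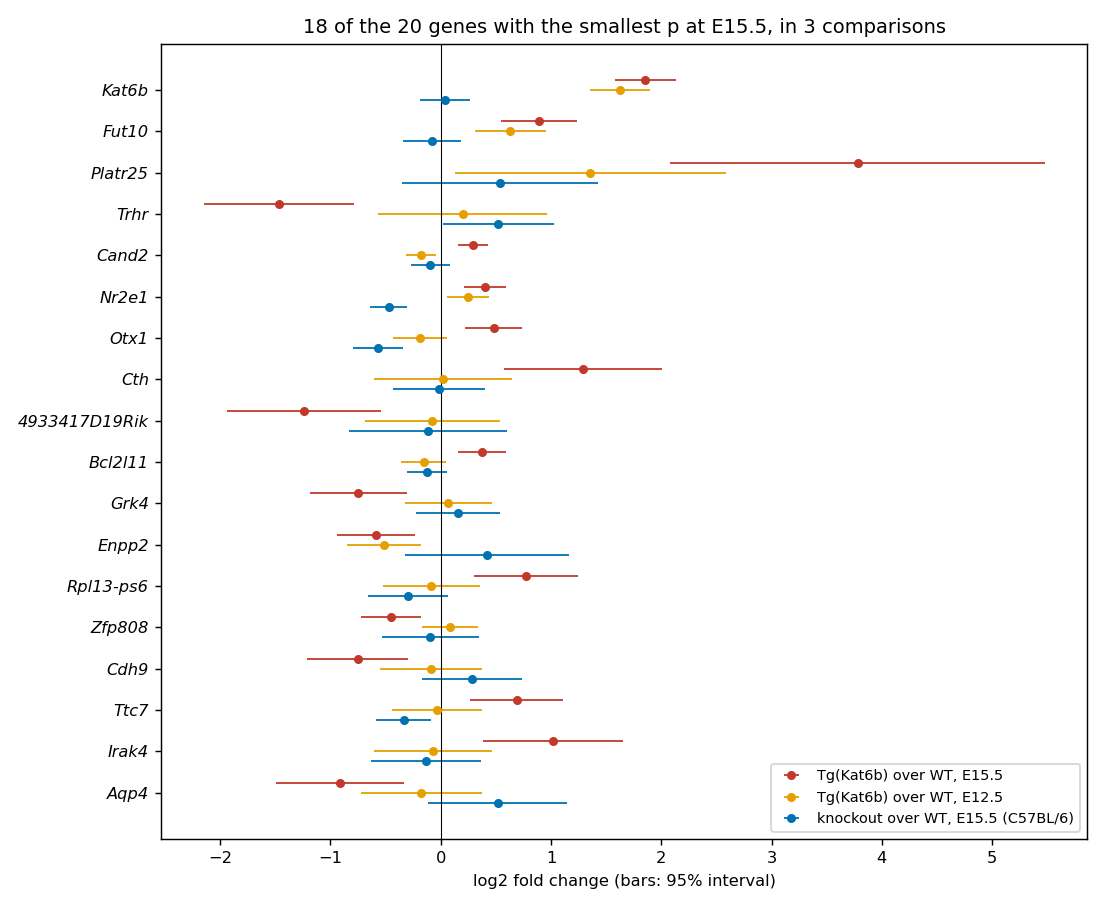
Log2 fold change (horizontal axis) with 95% interval for 18 of the 20 genes with the smallest p at E15.5, in Tg(Kat6b) at E15.5 (red) and E12.5 (orange) and in the labelled knockout at E15.5 (blue), each against its own wild type. Dupd1 and Ttr are left out, Kat6b and Fut10 are above 0 at both ages, and Nr2e1 and Otx1 are above 0 in transgenic and below 0 in labelled knockout cortex at E15.5.

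Gene lists of the cortex were described by the values of their members, since none but Kat6b and Dupd1 was called in any of the 33 lists. Lists and members were chosen with earlier results of these data known, so their shares above 0 are descriptions only. Most members named below were among those with the smallest p of their list, which favours groups that do not overlap. Over all genes tested 2.56% did not overlap, and nothing is read from this in the members. The genes of apical progenitors lay mostly above 0, 17 of 23 with a median log2 fold change of 0.12, beside the median of 0.0028 over all genes. Pax6, a transcription factor of these cells, stood at 120, 102, 100 and 114 CPM in wild-type and 129, 117, 113 and 159.9 CPM in transgenic libraries, a log2 difference of 0.25 with overlapping groups. Dmrta2, a regulator of cortical patterning, was 0.42 higher and its groups did not overlap (33.2 ± 2.11 and 44.4 ± 6.32 CPM). Fabp7, a lipid-binding protein of radial glia, was at -0.16, so the list did not move as one. The list's median was 0.18 without wild-type replicate 3. At E12.5 it was -0.02 and in the labelled knockout -0.08. Lists of other cell types and regions also differed in the labelled knockout. The meningeal median was 0.85, that of hem and choroid plexus 0.46 and that of Cajal-Retzius cells 0.23. Those of ventral telencephalon and erythroid genes were -0.10 and -0.06, and the remaining such lists lay between 0.0073 and 0.17. Whether tissue make-up bears on the knockout medians given here and below was not tested.

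In the list of 18 intermediate progenitor genes 15 lay above 0, with a median of 0.12 (-0.05 at E12.5 and -0.12 in the labelled knockout). Rcor2, a corepressor gene, differed by 0.19 and the neurogenic factor gene Neurog1 by 0.28, both with overlapping groups. Cell cycle genes had 27 of 30 above 0, with a median of 0.14. Rrm2, a subunit of ribonucleotide reductase, stood at 109.7, 106, 115 and 116 CPM in wild-type and 148, 141, 122 and 126 CPM in transgenic libraries, without overlap. Its log2 difference was 0.26 (SE 0.099). The replication licensing gene Mcm2 differed by 0.23, the cyclin-dependent kinase gene Cdk2 by 0.20 and the mitotic kinase gene Plk1 by 0.19. In 4 of the 30 cell cycle genes all transgenic libraries were above all wild-type libraries, beside 1.5% of all genes. Summed over the list, wild-type libraries were between 3936 and 4335 CPM and transgenic libraries between 4305 and 4699 CPM, so the groups overlapped. The median of the list was 0.01 at E12.5, with 16 of 30 above 0, and -0.13 in the labelled knockout, with 29 of 30 below 0. Of all genes tested, 47.38% lay above 0 at E12.5 and 53.01% in the labelled knockout. Inhibitors of cyclin-dependent kinases and targets of p53 lay on both sides, 10 of 18 above 0 with a median of 0.03.

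SOX transcription factor genes, several of which keep progenitors undifferentiated, had 15 of 18 tested members above 0 and a median of 0.10. Sox9 stood at 91.4, 104, 97.4 and 88.0 CPM in wild-type and 123, 118, 109 and 111 CPM in transgenic libraries, a log2 difference of 0.27 (SE 0.083, interval 0.10 to 0.45). Its groups did not overlap, as in 2.56% of all genes tested. Sox21 differed by 0.28 without overlap, and Sox2 by 0.18 and Sox4 by 0.23 with overlap. No SOX gene passed the adjusted threshold. The list's median was -0.06 at E12.5 and -0.19 in the labelled knockout, where 16 of 18 lay below 0. For Sox9, the effect was -0.18 at E12.5, and the difference between the ages was 0.45 (interval 0.21 to 0.70). Sox9 was named for its small p at E15.5, an effect this difference contains, so nothing is read from the interval. The family's median rose from 0.10 to 0.19 when transgenic replicate 4 was left out.

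Signalling lists were similar, but the Notch list is not separate from the progenitor lists. Notch1, Hes1 and Hes5 were also members of the apical list, and Dll1, Dll3 and Mfng of the intermediate list. Of the Notch genes 15 of 19 lay above 0 with a median of 0.10 (-0.09 at E12.5 and -0.07 in the labelled knockout). Among those above 0 were the receptor gene Notch1 at 0.26 and the ligand gene Dll1 at 0.18. Wnt pathway genes were above 0 in 18 of 24, also with a median of 0.10 (-0.04 at E12.5 and 0.04 in the labelled knockout). Fzd8, a Wnt receptor, stood at 35.1, 34.0, 31.2 and 30.7 CPM in wild-type and 41.9, 40.9, 37.1 and 38.5 CPM in transgenic libraries, a log2 difference of 0.27 without overlap. Genes that pattern the areas of the cortex had 14 of 23 above 0 and a median of 0.06. Of these, Pax6, Emx2, Dmrta2 and Lhx2 were also members of the apical list. The median of the area list was -0.000693 without wild-type replicate 1.

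Deep-layer neuron genes had 10 of 18 above 0 and a median of 0.08. Tbr1, which specifies corticothalamic neurons, was at 363 ± 27.5 CPM in wild-type and 430.5 ± 59.1 CPM in transgenic cortex (SD, n = 4 each), with overlap. Upper-layer genes had 6 of 18 above 0 and a median of -0.02, and genes of all neurons 8 of 21 and a median of -0.02. The list of all neurons had a median of -0.12 without transgenic replicate 4. Synapse genes had 9 of 26 above 0 and a median of -0.03. Snap25, part of the vesicle fusion machinery, was at 164 ± 5.88 CPM in wild-type and 138 ± 13.6 CPM in transgenic cortex without overlap, a log2 difference of -0.24. Axon guidance genes had 18 of 32 above 0 (median 0.02), and clustered protocadherins 11 of 25 (median -0.03).

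**Figure D4:**
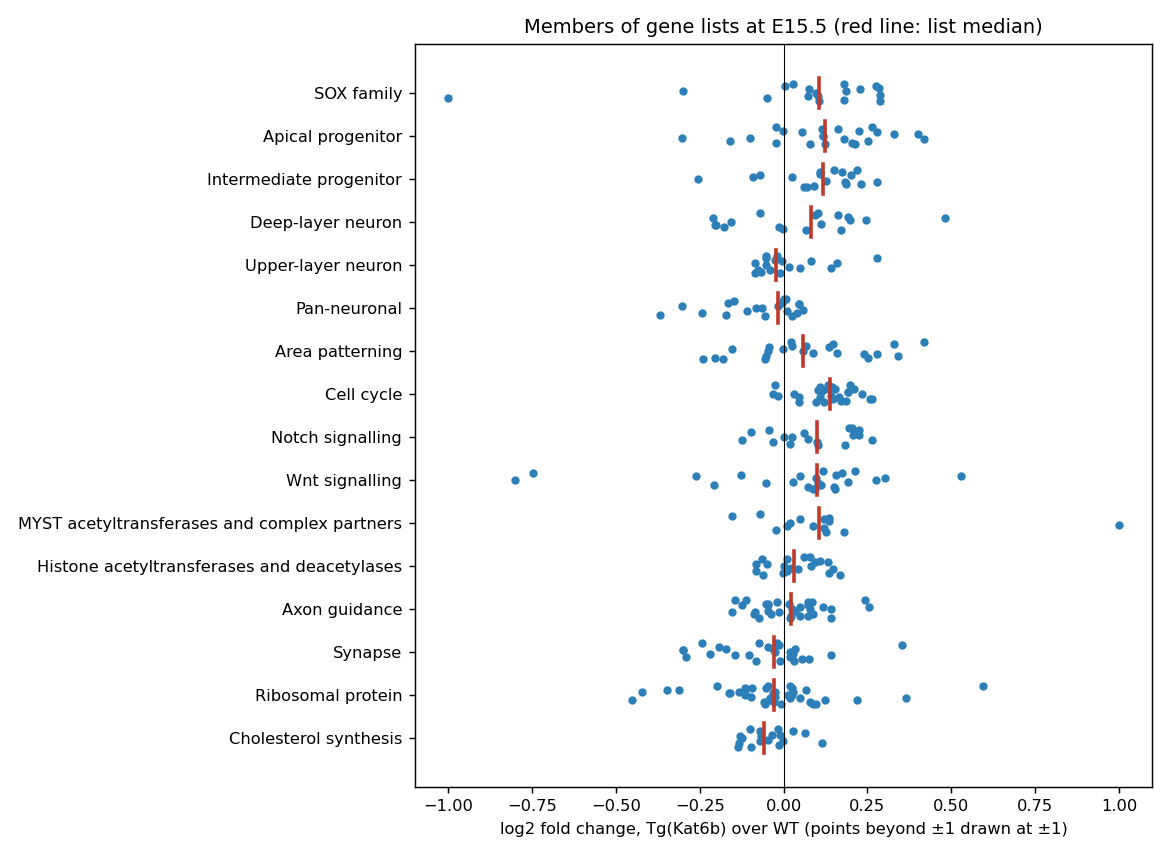
Log2 fold change of Tg(Kat6b) over wild type at E15.5 (horizontal axis) of each tested member (points) of 16 gene lists, with the list median as a red line and points beyond 1 or -1 drawn at the edge. Cell cycle genes lie mostly above 0, with a median of 0.14, and upper-layer, neuronal, synapse, ribosomal and cholesterol genes have medians below 0.

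Metabolic and stress lists were mixed. Glycolysis and hypoxia genes had 16 of 19 above 0 and a median of 0.09 (-0.02 at E12.5 and 0.01 in the labelled knockout). Hk2, a hexokinase, stood at 21.8, 18.02, 18.4 and 16.8 CPM in wild-type and 25.3, 23.6, 23.5 and 24.8 CPM in transgenic libraries, a log2 difference of 0.38 without overlap. Targets of the stress factor ATF4 had 11 of 18 above 0 (median 0.08), and immediate early genes 10 of 17 (median 0.03). Cholesterol synthesis genes had 3 of 18 above 0, with a median of -0.06 and values from -0.14 to 0.11, so each differed little. Of the ribosomal protein genes 16 of 40 lay above 0, with a median of -0.03. Several genes of these lists with many processed copies in the genome, such as Rpl38 at 4.48 and Gapdh at 5.01 CPM in wild type, had very low counts for their class, and their values are uncertain.

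Markers of cell types and regions outside the cortex were examined because the dissection may hold them in unequal amounts, and in whole tissue fewer cells of a type cannot be told apart from less RNA per cell. The largest gap was in the list of cortical hem and choroid plexus, whose summed level was 550 CPM in wild-type replicate 3 and between 80.5 and 100 CPM in the other 7 libraries. Its median log2 fold change was -0.24, with 8 of 20 genes above 0, and became 0.16 without that library. The choroid plexus genes Kcne2, Folr1 and Clic6 had log2 fold changes of -4.00, -2.39 and -1.93, and each turned positive without it. Meningeal genes had 9 of 20 above 0 and a median of -0.04, with the same library 0.46 above the mean of all 8. That median turned to 0.25 without wild-type replicate 3 and transgenic replicate 4, 0.32 with a covariate for Y-linked genes and 0.25 by limma-voom with quality weights.

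Genes of the ventral telencephalon and of interneurons had 11 of 25 above 0, and their median, -0.0042, was near that of all genes. Transgenic replicate 4 lay 0.85 below the mean there, with a summed level of 908 CPM beside 1331 to 1977 CPM in the other libraries. Gad1, which makes the transmitter GABA, was at 58.5 CPM in that library and at 92.5 to 151 CPM in the other 7. Microglial genes had 7 of 20 above 0 (median -0.04), endothelial and pericyte genes 9 of 20 (-0.0076), and Cajal-Retzius genes 8 of 14 (0.02). Erythroid genes had 3 of 13 above 0 (-0.24). Astrocyte and oligodendrocyte genes had 4 of 17 above 0 (-0.12), and genes of the diencephalon, midbrain and hindbrain 5 of 15 (-0.21). That last list had a median of 0.09 without wild-type replicate 2, in which its summed level was 98.0 CPM beside 48.6 to 70.7 CPM elsewhere. The tested Y-linked genes were above 0 in 3 of 4, with wild-type replicate 3 near 0 CPM. Kat6b and Dupd1 remained the called genes when wild-type replicate 3 and transgenic replicate 4 were left out together. For the cortical lists above, the part of these cell types in their values was not tested, in transgenic or in labelled knockout cortex.

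**Figure D5:**
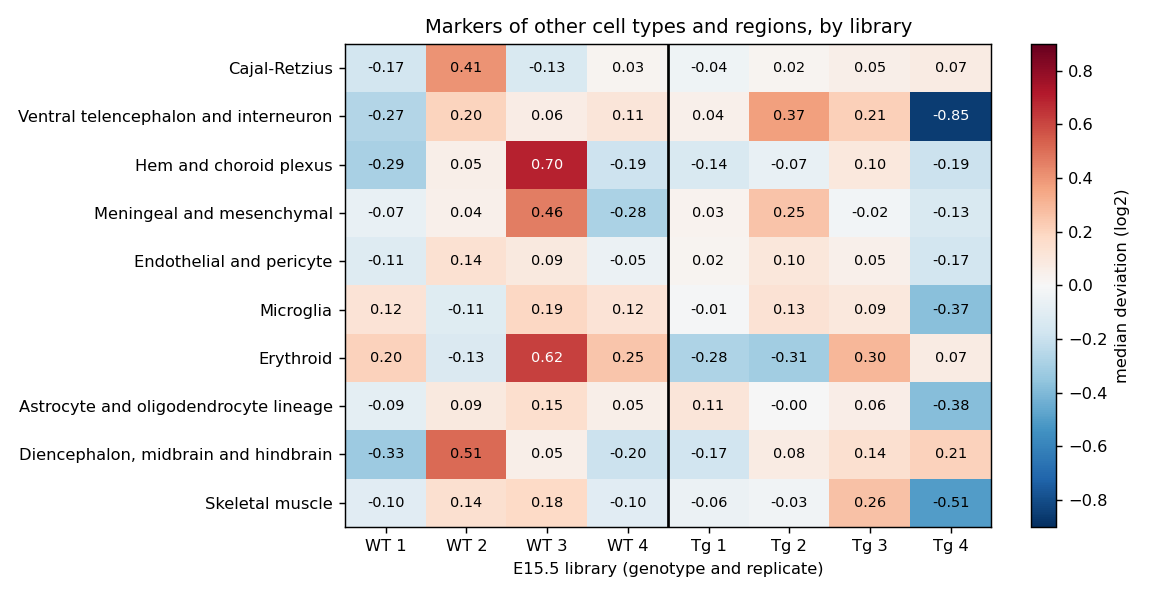
Median deviation of each list of other cell types and regions from the mean of all 8 libraries (log2, colour and number), for the 4 wild-type and 4 Tg(Kat6b) libraries at E15.5. Wild-type replicate 3 is highest for hem and choroid plexus (0.70) and transgenic replicate 4 is lowest for ventral telencephalon (-0.85), and the genotypes overlap in each list.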

How the data were processed

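RNA was isolated with RNeasy columns, made into libraries with a TruSeq kit and read as 66 bp pairs on a NextSeq500, per the labels' protocols. The authors deposited raw counts per gene from featureCounts on mm10, per the submitters' processing notes. The sources used here give no aligner, annotation, strand setting or version. Of 27179 entries per library, 848 named no gene and were left out (0.337% to 0.434% of counts at E15.5). Positions came from RefSeq for GRCm38.p6, where 25275 of 26331 identifiers matched.

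The 16 FVBxBALB/c libraries were fitted in 1 edgeR 4.0.16 quasi-likelihood model (R 4.3.3, TMM scaling, robust, filterByExpr with minimum count 10 and total 15, 12 residual degrees of freedom, biological coefficient of variation 0.188). The C57BL/6 libraries had a fit of their own. Tests were 2-sided, and p was adjusted by Benjamini-Hochberg over all genes, with a threshold of 0.05. SE is the absolute log2 fold change over the root of F. CPM are counts scaled to the effective library size. DESeq2 1.42.0 and limma 3.58.1 gave alternatives. Named were the called genes, those with the smallest p up to 20, and up to 4 members per list with the smallest p. A few further list members and neighbours of Kat6b were named for their role or position. Members and the 33 lists were chosen with earlier results of these data known.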

Additional observations from a re-analysis of the deposited data

Results flagged for a closer look

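Among 344 groups of 4 values (each named gene and each list, per genotype at E15.5), 22 had 1 library whose gap to the nearest other exceeded Dixon's 95% critical share of the range. Chance gives about 1 in 20 such groups. Values below are CPM except where said.

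Wild-type replicate 3 stood apart in 6 of them. It was high for the choroid plexus genes Ttr (428.3, others 1.46 to 2.81), Clic6 (13.2, others 0.390 to 1.37), Kcne2 (8.37, others at most 0.0908) and Folr1 (3.67, others 0.0975 to 0.195). It was low for the Y-linked gene Kdm5d (0.340, others 57.4 to 68.6) and for the median deviation of the sex-linked list (-6.33 on the log2 scale).

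Wild-type replicate 2 was low for Otx1 (29.6, others 32.2 to 32.5) and Nr2f1 (319, others 344 to 348), and high for Sox2 (286.5), Fzd5 (8.26) and Sim1 (11.03, others 1.66 to 2.92). Wild-type replicate 1 was low for Kat7 (107) and Nefl (25.1), and high for Tnnc2 (0.683) and for the median deviation of cell cycle genes (0.038, others -0.10 to -0.08 on the log2 scale). Cdh9 was high in wild-type replicate 4 (5.95, others 3.54 to 3.81).

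Transgenic replicate 4 was high for Fabp7 (765, others 642 to 648), Fzd1 (84.6) and Ap3m1 (108), and low for Myh7 (2.33) and Ing5 (22.2). Pax3 had 0.0803 in transgenic replicate 3 and 0 in the others.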

How the results depend on the processing

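The 2 calls at E15.5 stood under each setting that leaves out a library (counts from 2 to 3, the third being Fut10 without wild-type E12.5 replicate 4), under other scalings and count filters, with limma-voom, and with a covariate for Y-linked genes. DESeq2 called 7 genes at E15.5, 6 at E12.5, 1 for the difference of the ages and 7 in the labelled knockout. The 8 libraries alone gave 4 calls. Leaving out libraries gave 2 to 2 calls at E12.5, 0 to 0 for the difference and 0 to 0 in the labelled knockout. None of the 20 genes with the smallest p changed sign at E15.5. Their groups do not overlap, so leaving out a library could hardly reverse a sign, and nothing is read from this.

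Whether equal replicate numbers pair transgenic and wild-type samples is unknown, since litter is blank for them, while in the labelled knockout equal numbers share a litter. In the transgenic comparison, same-number correlations of deviations from the group mean were -0.141, 0.0847, 0.00389 and -0.0374 at E15.5. At E12.5 they were 0.604, 0.0501, -0.116 and 0.384. These mixed values cannot decide whether the transgenic and wild-type samples were paired. The main fits of both experiments used no pairing. With the replicate number as a block, 3 genes were called at E15.5, 3 at E12.5, 0 for the difference and 0 in the labelled knockout.

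Signs of 14 uncalled genes reversed. Over the settings that leave out 1 library, log2 fold changes ran from -4.43 to 1.42 for Kcne2, -3.16 to 0.45 for Folr1, -2.36 to 0.16 for Clic6, -1.37 to 0.57 for Pax7 and -0.21 to 0.52 for Ddx3y, each reversed by leaving out wild-type replicate 3. They ran from -0.40 to 0.079 for Calb2 and -0.94 to 0.32 for Sim1 (reversed without wild-type replicate 2), from -0.027 to 0.17 for Trp53inp1 and -0.17 to 0.013 for Pou3f1 (without transgenic replicate 4), and from -0.66 to 0.033 for Eif2s3y at E15.5 (without wild-type replicate 1, at 0.00414, or 2). The Enpp2 difference between the ages ran from -0.24 to 0.036. With the Y-linked covariate Kcne2 was 1.06, Folr1 0.34, Clic6 0.098 and Pax7 0.39. Eif2s3y was 2.21 with limma-voom, 1.71 with quality weights, where Pax7 was 0.044, and 0.21 with the replicate block. Without wild-type replicate 3 and transgenic replicate 4 together, chosen after seeing the data, values were 1.75 for Kcne2, 0.63 for Folr1, 0.42 for Clic6, 0.86 for Pax7, 0.052 for Apoe, 0.070 for Pou3f1, -0.36 for Ddx3y, -0.059 for Uty, -0.100 for Kdm5d, -0.025 for Nhlh2 and -0.078 for Trp53inp1. The causes were not tested.

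With 4 libraries per genotype and a median SE of 0.1503, small changes are not detectable here, and absence of a call is no evidence of equal levels.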
